A study of Homo sapiens with 4 samples.

Results

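Cyclins and cyclin-dependent kinases were examined for the binding of HNRNPC, a mostly nuclear RNA-binding protein, and PABPC4, a poly(A)-binding protein. The 10 genes taken were CCND1, CCND3, CCNE1, CCNE2, CCNA2, CCNB1, CDK1, CDK2, CDK4 and CDK6, out of 13328 gene IDs present in the peak lists. Each gene was found by its NCBI Gene ID in the list of each protein, with every position counted once. They held 3 of 9107 HNRNPC positions and 70 of 63507 PABPC4 positions. The source was MDA-MB-231, an established triple-negative human breast cancer line, exposed to 400 mJ per cm2 of ultraviolet light at 254 nm, which bonds proteins to the RNA they touch. HNRNPC was mapped in 2 samples by irCLIP per the labels, although the name of its list reads HITS-CLIP, and PABPC4 in 2 samples by PAPERCLIP, in which reverse transcription starts at the poly(A) tail. The authors pooled the samples of a protein into 1 peak list, which leaves replicate error unknown, and no difference was tested. Peak height is the number of pooled tags at the summit, was not scaled to library depth, and depends both on how much of an mRNA a cell holds and on how often it is bound. Intervals cover counting error only.

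The line's markers were read from the tallest PABPC4 peak in the 3′ UTR, the untranslated stretch after the stop codon. The mesenchymal markers VIM, CAV1, AXL and CD44 reached 10197, 2714, 1041 and 331 tags, while the epithelial marker CDH1 reached 56 tags. The quartiles over genes with a 3′ UTR peak were 33, 72 and 144 tags. CDH1 thus lay between the lower quartile and the median, and did not read as absent. The estrogen receptor gene ESR1 had 0 tags in its 3′ UTR, with 2 peaks of at most 7 tags elsewhere, and the progesterone receptor gene PGR had 0 peaks.

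Cyclins are the regulatory subunits of cyclin-dependent kinases and rise and fall through the cell cycle. D-type cyclins pair with CDK4 and CDK6 to phosphorylate the retinoblastoma protein in G1, E-type cyclins pair with CDK2 at the entry into S phase, and cyclins A2 and B1 drive S phase and mitosis with CDK2 and CDK1. The length of a 3′ UTR is set by which poly(A) site is cleaved, usually shortly downstream of an AAUAAA or AUUAAA signal, and shortened CCND1 3′ UTRs that lose destabilising elements are known from mantle cell lymphoma.

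The sequences at the 3′ ends of the PABPC4 peaks of the D-type cyclins and their kinases are shown first, because they differ in what lies at the end of a peak. All are read 5′ to 3′ from GRCh38 (hg38) on the gene's strand, written as RNA. Capitals mark a poly(A) signal or, for the CCND1 peak near the stop codon and the CDK6 peak at its tallest, a run of A. The CDK4 end holds neither. The windows with a run of A extend from 4 nt before to 25 nt after the peak end, so they lie mostly downstream. The others stop at the last base of the peak, so the sets do not show the same side of the end.
CCND1 near the stop codon, chr11:69651504-69651533, plus strand: agAAAAAAAAAAuaguauuugcauaacccu
CCND1 at the annotated end, chr11:69654446-69654475, plus strand: agucuagaAAUAAAacugguaaaaccccag
CCND3 at the annotated end, chr6:41934935-41934964, minus strand: uugugaAAUAAAacuggcuuuggcuucuug
CDK4, chr12:57748220-57748249, minus strand: aagaaauaauggucuuuuuuuuuuuuuuaa
CDK6 at its tallest, chr7:92612094-92612123, minus strand: uacauauAAAAAgagaaaaagagaaacuug
CDK6 at the annotated end, chr7:92604933-92604962, minus strand: cuguagugaguaaaauucAUUAAAuuccaa

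The ends of the S-phase and mitotic members are shown to set canonical signals beside the CCNB1 peaks, where the signal lies further from the peak end. Capitals mark the poly(A) signal. The upstream CCNA2 window belongs to a peak in the first part of the 3′ UTR. The CCNB1 windows are shifted: the upstream one stops 15 nt before its peak's end, and the other starts just past its peak.
CCNE1, chr19:29824279-29824308, plus strand: auuuuuuAAUAAAgauaauacuguuuuuga
CDK2, chr12:55972752-55972781, plus strand: guagcucAUUAAAaaaaugugccuaguuuu
CCNA2 at the annotated end, chr4:121816445-121816474, minus strand: auuugaAAUAAAccagaaauuuguuaccuu
CCNA2 upstream, chr4:121817367-121817396, minus strand: aggauAAUAAAuugauuuggaaaacuuugc
CCNB1 upstream, chr5:69177714-69177743, plus strand: uuuuAAUAAAgcuuguggccccuuuuacuu
CCNB1 after the last peak, chr5:69178206-69178235, plus strand: uuuuguguuuugguuAAUAAAacaauacuc
CDK1, chr10:60794821-60794850, plus strand: uagcuuugggaAUUAAAcuguuuaacaaau

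PABPC4 peaks stood in the 3′ UTR of 10 of the 10 genes, and HNRNPC peaks in the introns of 3. Over the 19061 protein-coding genes with a MANE Select transcript, the reference transcript agreed between annotations, 48.2% had a PABPC4 3′ UTR peak and 59.6% had any PABPC4 peak. Any HNRNPC peak was found in 18.9% of those genes, and in 33.9% of the genes that also had a PABPC4 3′ UTR peak. An HNRNPC 3′ UTR peak was found in 1.83% of genes and in 0 of the 10. The protein-coding genes include ones that the line does not express, and no list of expressed genes was used.

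**Figure D1:**
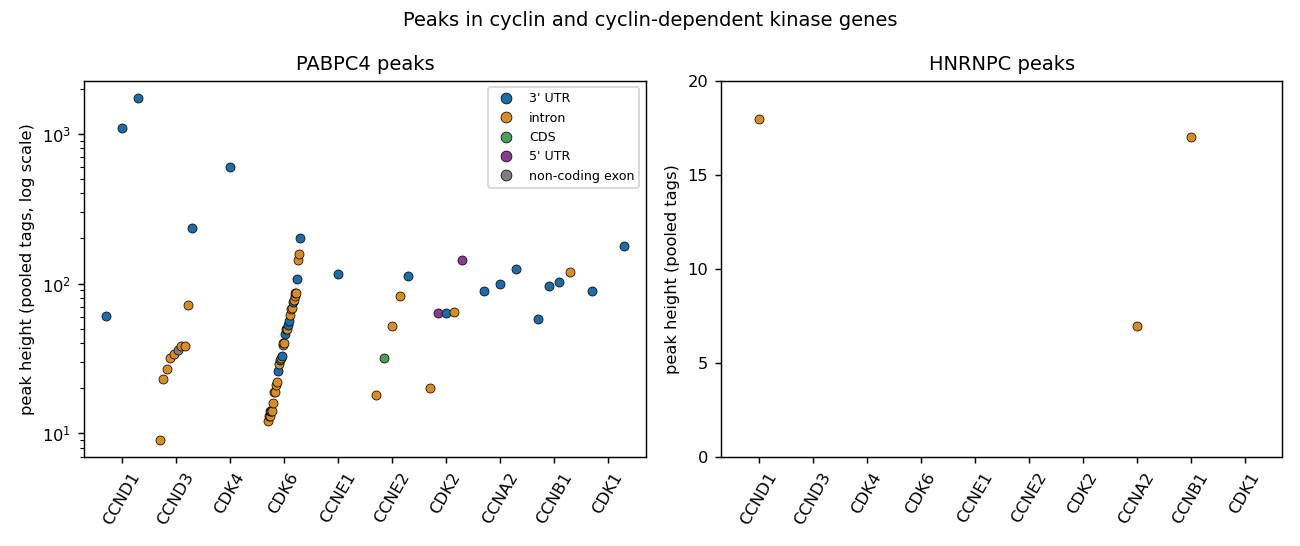
Height of every peak, in pooled tags, by gene for PABPC4 (left, log scale) and HNRNPC (right, linear scale from 0), each point being 1 peak coloured by the feature at its centre. CCND1 and CDK4 hold the tallest PABPC4 peaks, CDK6 holds 36 of the 70, and the 3 HNRNPC peaks lie in introns of CCND1, CCNA2 and CCNB1.

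The tallest 3′ UTR peak of each gene gave the order CCND1, CDK4, CCND3, CDK6, CDK1, CCNA2, CCNE1, CCNE2, CCNB1, CDK2, and 9 of the 10 lay above the median gene. CCND1 reached 1730 tags (95% Poisson interval 1649 to 1813), and CDK4 reached 600.0 tags (553 to 650.0). CCND3 had 235 tags (206 to 267), CDK6 200 tags (173 to 230), CDK1 178 tags (153 to 206) and CCNA2 126 tags (105 to 150.0). The remaining genes had 115 tags (CCNE1), 113 tags (CCNE2), 103 tags (CCNB1) and 64 tags (CDK2). Counting intervals of neighbours did not overlap between CCND1 and CDK4, CDK4 and CCND3, CDK1 and CCNA2, and CCNB1 and CDK2, and did overlap for the other neighbouring pairs. The quartiles over the 9194 genes with a 3′ UTR peak were 33, 72 and 144 tags, which put CCND1 at percentile 99.4, CDK4 at 96.6, CCNB1 at 64.0 and CDK2 at 46.1.

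On a scale per length, the peak caller's expected height, which spreads the tags of a gene over its whole span, the order changed. CCND1 (11.2 tags) and CDK4 (4.64 tags) stayed at the head, at percentiles 98.9 and 97.3 of the list's genes. CDK2 and CCNB1 followed at 2.61 and 2.14 tags. CCNE1, CDK6 and CCND3 were lowest of the 10 at 0.39, 0.37 and 0.24 tags, which still lay above the median gene of 0.19 tags.

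Of the members' PABPC4 peaks, 29 (41.4%, 95% Wilson interval 30.6 to 53.1%) lay in 3′ UTRs, where the whole list had 28.7%, and 37 (52.9%, 41.3 to 64.1%) in introns, where the list had 58.8%. By peak centre, the 5′ UTR of CDK2 held 2, the coding sequence of CCNE2 held 1 and a non-coding exon of CCND3 held 1. These features held 0.436%, 4.97% and 3.17% of the list. Peaks 46 to 48 nt wide made up 42.9% of the members' peaks and 47.6% of the list. The median 3′ UTR height was 89 tags for the members (quartiles 53 and 115) and 46 tags for the list (22 and 94). The median intron height was 38 tags for the members and 36 tags for the list.

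Of the 29 3′ UTR peaks, 10 carried a poly(A) signal in their last 40 nt (34.5%, 19.9 to 52.7%), where 48.7% of all 3′ UTR peaks did. With the window taken to 100 nt past the peak end, the share was 51.7% for the members and 67.8% for the list. An A-rich stretch, meaning a run of 6 A, or 7 A among 10 nt, in the first 50 nt downstream, followed 10 of the 29, and 32.0% of the list. CDK6 alone gave 13 of the 29 peaks, of which 2 had a signal and 7 an A-rich stretch. The members' shares therefore lean on that gene, and its peaks are not independent members. The 9 peaks with a signal and no A-rich stretch held 2676 tags, and 7 of them ended within 50 nt of an annotated transcript end, as did 77.9% of such peaks in the list. The 9 A-rich peaks without a signal held 1673 tags, and 1 of them ended that near, against 32.2% in the list. The 10 with neither held 1177 tags, and 0 of them ended that near, against 36.0% in the list. A primer for poly(A) tails can also anneal to A within a transcript, and the part of that in these peaks was not tested.

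A signal-bearing peak within 50 nt of an annotated end was found in 8 of the 10 genes, and in 65.9% of all genes with a PABPC4 3′ UTR peak. CCNB1 and CDK4 were the exceptions. There were 2 or more peaks in the MANE 3′ UTR of 5 genes (CCND1, CDK6, CCNA2, CCNB1, CDK1), and of 47.7% of genes with any such peak. For these the upstream share was computed, the part of the 3′ UTR height in peaks that end over 100 nt before the transcript end.

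**Figure D2:**
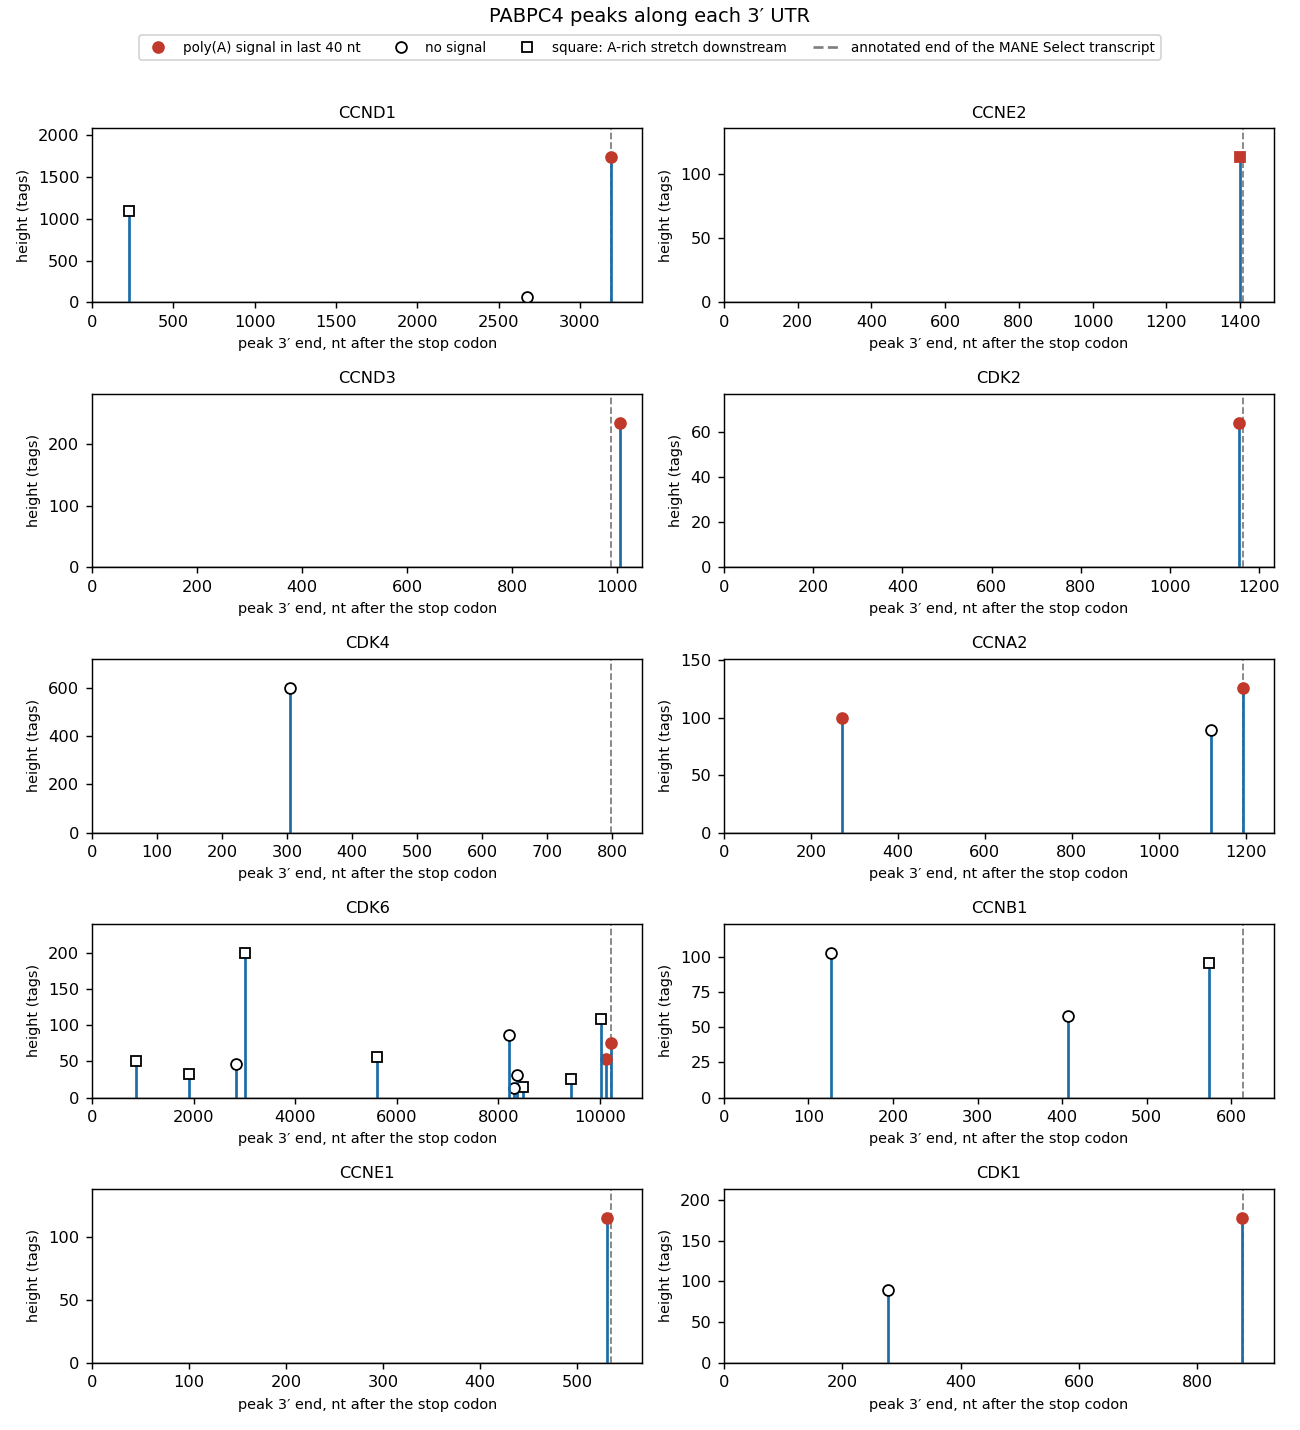
PABPC4 peaks of each gene placed by the distance of their 3′ end from the stop codon in nt (horizontal, linear), with the height in tags (vertical, linear from 0, scaled per gene). Red marks a poly(A) signal in the last 40 nt, squares mark an A-rich stretch downstream and the dashed line is the annotated MANE Select end. Signal-bearing peaks stand near the dashed line in 8 genes, whereas CDK4 has its 1 peak 493 nt before it.

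CCND1, which encodes cyclin D1 and spans chr11:69641156-69654474 on the plus strand, had 3 PABPC4 peaks, all in its 3192-nt 3′ UTR. The peak at chr11:69654315-69654475 held 1730 tags, ended within 1 nt of the annotated transcript end and had AAUAAA 21 nt before its own end. The peak at chr11:69651407-69651508 held 1090 tags and ended 226 nt after the stop codon, which would leave 7.08% of the 3′ UTR. A small peak of 61 tags at chr11:69653921-69653954 ended 520 nt before the full-length end, with neither a signal nor an A-rich stretch.

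The peak near the stop codon thus held 37.8% of the 3′ UTR height (exact binomial interval 36.1 to 39.6%), and the full-length peak was 1.59 times as tall. The peak near the stop codon ended at a run of 10 A in the genome, and had no AAUAAA or AUUAAA in its last 40 nt or in the 100 nt beyond. It ended 101 nt past the nearest annotated end, which belongs to a retained-intron transcript. The part of the A run in this peak was not tested.

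The upstream share of CCND1 was 39.95% (38.2 to 41.8%), and without A-rich peaks it was 3.41%, or 61 of 1791 tags. Over the 4320 genes with 2 or more peaks the quartiles were 31.8, 71.9 and 100%, so CCND1 stood at percentile 29.7, below the median gene. The rule for likeness took genes with 3 such peaks and a tallest one at least as high as that of CCND1, of which there were 7. The nearest were CAV1 (62.3%), TMBIM6 (62.7%) and TPI1 (14.7%), which differed by 22.4, 22.7 and 25.3 percentage points.

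The 2966 nt beyond the end near the stop codon held 7 AUUUA pentamers, the core of many destabilising AU-rich elements, and the first 226 nt held 0. AUUUA is common at such lengths. Of 3200 3′ UTRs at least as long, cut to the same length, 96.2% held it, with a median count of 7. MicroRNA seeds were matched as 7-letter complements of bases 2 to 8 of the mature RNA, on the sense strand. The matches for miR-16-5p and miR-17-5p are printed because these families are known regulators of cyclin D1, with the RefSeq mature sequence and its seed in capitals followed by the matched site in capitals.
miR-16-5p: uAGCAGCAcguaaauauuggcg
CCND1 match to miR-16-5p: uuucacauuguuUGCUGCUauuggaggauc
miR-17-5p: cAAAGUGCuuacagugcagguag
CCND1 match to miR-17-5p: uuccauuuccaaGCACUUUcaguccaauag

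The miR-16-5p match began 2033 nt and the miR-17-5p match 1014 nt after the stop codon, so both lay beyond the end near it. Such a match was found in 38.1% and 42.1% of the 3′ UTRs as long. Seeds of let-7a, miR-26a, miR-29a and miR-34a had 0 matches in the CCND1 3′ UTR. A match of letters is not a measured site.

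CCND3, which encodes cyclin D3, spans chr6:41934934-42050357 on the minus strand and had 10 PABPC4 peaks. Its 1 3′ UTR peak held 235 tags, ended 1 nt from an annotated end and had AAUAAA 23 nt before its end. The 8 intron peaks held 9 to 72 tags (median 33) and all lay in the part of the gene before the start of the MANE transcript. Of these, 7 had an A-rich stretch downstream. Those of 34 and 72 tags each shared 20 nt with 850 other PABPC4 peaks. Those of 9 and 32 tags and 1 of 38 tags did so with 44, 209 and 64. The rest, another of 38 tags among them, did so with at most 12.

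CDK4, a G1 kinase that partners D-type cyclins, had 1 PABPC4 peak of 600.0 tags at chr12:57748220-57748411 on the minus strand. It ended 305 nt after the stop codon and 493 nt before the MANE end. It had no AAUAAA or AUUAAA from 40 nt before to 100 nt after its end, was not A-rich downstream, and held a run of 14 U that reads as A on the other strand. TSPAN31, on that other strand, had PABPC4 peaks of 57, 29 and 65 tags, the last of which overlapped the CDK4 peak by 20 nt. The part of the opposite-strand gene in the CDK4 peak was not tested.

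CDK6, the other G1 kinase, spans 231.7 kb at chr7:92604921-92836573 on the minus strand and carries a 3′ UTR of 10219 nt. It held 36 PABPC4 peaks, 13 in the 3′ UTR and 23 in introns. The 3′ UTR peaks ranged from 13 to 200 tags (median 50). The tallest ended 3021 nt after the stop codon, was A-rich downstream and had no signal in its last 40 nt, though AAUAAA began 64 nt past its end. At the annotated end a peak of 75 tags had AUUAAA 11 nt before its own end, and 95 nt before the annotated end a peak of 53 tags had AAUAAA. Another peak near the end held 108 tags, lay 199 nt before it and was A-rich.

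Most of the CDK6 3′ UTR height therefore lay upstream. The upstream share was 83.8% (81.1 to 86.3%), at percentile 59.1 of genes with 2 or more peaks, against 39.95% in CCND1. For CDK6 it was not recomputed without A-rich peaks, which made up 7 of its 13 3′ UTR peaks and included the tallest. The CDK6 3′ UTR held 2 seed matches each for miR-34a-5p, miR-26a-5p, miR-29a-3p and miR-16-5p, 1 for miR-17-5p and 0 for let-7a-5p. All but 1 of these matches, for miR-34a-5p at 1088 nt, lay beyond the tallest peak. The stretch beyond that peak made up 70.4% of the 3′ UTR. Of 161 3′ UTRs as long, cut to the same length, 80.1% held a miR-17-5p match, 65.8% a miR-16-5p match, 57.8% a miR-26a-5p match, 57.8% a miR-29a-3p match, 51.6% a miR-34a-5p match and 46.6% a let-7a-5p match.

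**Figure D3:**
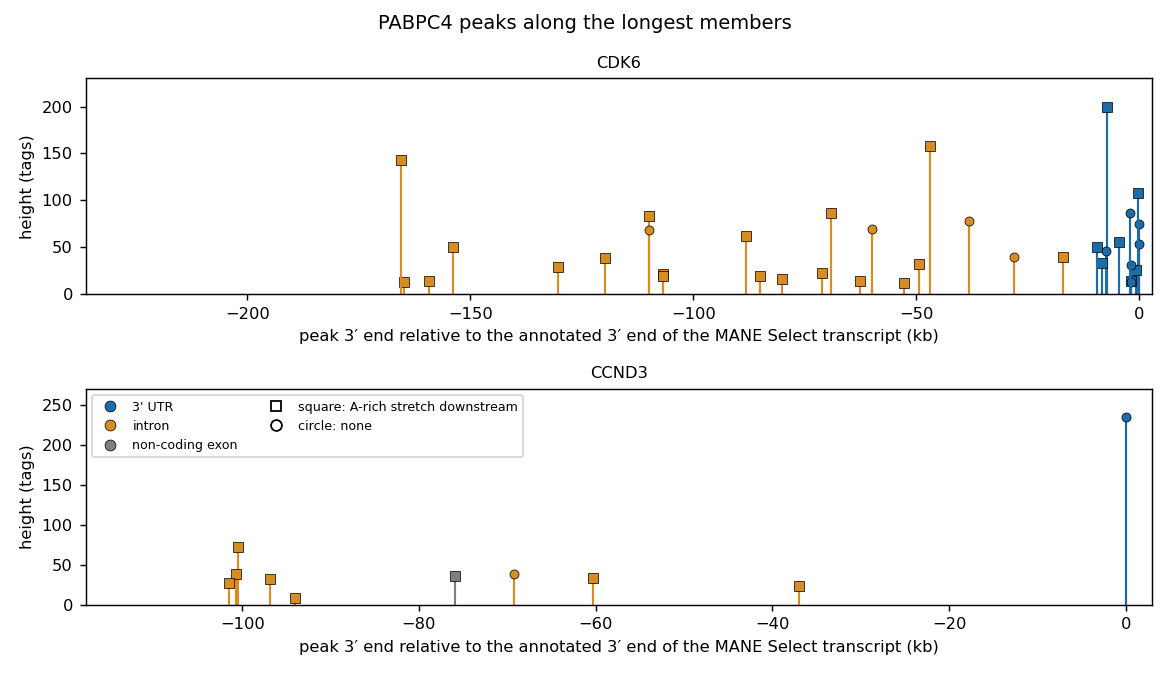
PABPC4 peaks along CDK6 and CCND3, the longest of the 10 genes, by distance of the peak 3′ end from the annotated MANE Select end in kb (horizontal) and height in tags (vertical, from 0). Squares have an A-rich stretch downstream, and they make up 26 of the 31 intron peaks (orange) of these genes.

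The intron peaks of CDK6 held 12 to 158 tags (median 39), and 19 of 23 were A-rich. An intron peak of 68 tags at chr7:92714879-92714924 had AAUAAA 21 nt before its end and no A-rich stretch in the window. The neighbouring peak just downstream, chr7:92714807-92714862, was taller at 83 tags. That neighbour was A-rich, with a run of 11 A around its end. Of all PABPC4 intron peaks 2.24% had a signal without an A-rich stretch, and 1 of the 37 in the members did. A signal of either kind lay in 4 of the 37 (10.8%) and in 6.46% of all intron peaks. Over the members, 29 of the 37 intron peaks were A-rich (78.4%, 62.8 to 88.6%), and 71.0% of all intron peaks were. A stretch of 20 nt shared with at least 20 other PABPC4 peaks, a sign of repeat sequence, was found in 9 of the 37 and in 27.3% of all intron peaks. Reads of such repeats can be placed at the wrong copy.

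The members held 8.43 PABPC4 intron peaks per 100 kb of gene, and genes with a PABPC4 3′ UTR peak held 4.56. CDK6 and CCND3 held 31 of the 37 intron peaks, and also most of the length, 231.7 and 115.4 kb of 439 kb. Per 100 kb, CDK6 held 9.93 intron peaks and CCND3 6.93, with CCNB1 between them. CDK2 and CCNE2 were denser, at 33.3 and 17.7, from 2 and 3 intron peaks. The intron peaks lay in 5 of the 10 genes, and the share of all genes with one was not computed.

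CCNE1, which encodes cyclin E1, had 1 PABPC4 peak, of 115 tags, that ended 0 nt from an annotated 3′ end with AAUAAA 22 nt before. CCNE2, which encodes cyclin E2, had a 3′ UTR peak of 113 tags with a signal 27 nt before its end and an A-rich stretch downstream. CCNE2 also had 1 coding-sequence peak of 32 tags and 3 intron peaks of 18, 52 and 82 tags. The E cyclins thus had 1 3′ UTR peak each, of near equal height.

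CDK2, their kinase, had the lowest of the tallest 3′ UTR peaks, 64 tags, ending 8 nt before the MANE end with AUUAAA 22 nt before its own end. Peaks of 144 and 64 tags had their centres in its 5′ UTR, without a signal and without an A-rich stretch. The one of 144 tags ran past the start codon and ended in the coding sequence. Only 0.436% of PABPC4 peaks in the list, 277 in all, lay in a 5′ UTR, of which 4.69% had a signal and 56.7% an A-rich stretch. CDK2 was the 1 member whose tallest PABPC4 peak lay outside the 3′ UTR and the introns. Its intron peaks held 20 and 65 tags.

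CCNA2, which encodes the S-phase cyclin A2, had 3 peaks in its 1194-nt 3′ UTR. The peak at the annotated end held 126 tags with AAUAAA 23 nt before its end, and a peak of 89 tags ended 74 nt before the MANE end. The peak furthest upstream held 100 tags, ended 271 nt after the stop codon and 923 nt before the MANE end, had AAUAAA 24 nt before its end and was not A-rich. Its upstream share was 31.7% (26.6 to 37.2%). Among the members' 3′ UTR peaks over 100 nt before the MANE end, the CCNA2 peak was the 1 with a signal in its last 40 nt.

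CCNB1, which encodes the mitotic cyclin B1, had 3 peaks in its 614-nt 3′ UTR, of 103, 58 and 96 tags in the order 5′ to 3′. The first ended 127 nt after the stop codon, with AAUAAA starting 40 nt before its last base and so 1 nt outside the window of the last 40 nt. The last ended 40 nt before the MANE end, and AAUAAA began 16 nt past its own end. The upstream share was 62.6% (56.4 to 68.6%). The heights of these peaks were closer to each other than those of CCND1. A CCNB1 intron peak of 119 tags was A-rich and shared 20 nt with 198 other PABPC4 peaks.

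CDK1, the mitotic kinase, had a peak of 178 tags 2 nt before the MANE end, with AUUAAA 18 nt before its own end. A second peak of 89 tags ended 277 nt after the stop codon, with neither a signal nor an A-rich stretch. The upstream share was 33.3% (27.7 to 39.3%), and its interval overlapped that of CCNA2.

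HNRNPC binds runs of U, and its 3 peaks in these genes all lay in introns, where the list had 81.4%. In 3′ UTRs the list had 4.63% of its peaks and the members 0 of 3. Each site is shown with the longest U run of the peak, or of the 50 nt upstream of it, in capitals.
CCND1 intron 4, chr11:69648648-69648677, plus strand: aaaaaugccauugUUUUauucccgagucuu
CCNA2 intron 1, chr4:121823091-121823120, minus strand: ccuuucucuccacUUUUaaaccccaggcac
CCNB1 intron 7, chr5:69175678-69175707, plus strand: auguuuccacaucUUUUUguuuuugagaca

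In CCND1, HNRNPC had a peak of 18 tags at chr11:69648707-69648981, in the 2975-nt intron 4 and 564 nt from its start. The height expected there was 2.61 tags, at percentile 99.8 of genes with an HNRNPC peak, and the authors' p-value was 0.0201. HNRNPC tags per length were thus many over the CCND1 gene as a whole, as were PABPC4 tags, at percentile 98.9. The tallest HNRNPC peak itself stood at percentile 70.4. The part of mRNA amount in these values was not tested. CCNB1 had a peak of 17 tags at chr5:69175698-69175804, which shared 20 nt with 55 other HNRNPC peaks, 0.604% of the list. The authors' p-value for it was 1e-100. The members' PABPC4 peaks carried that same value at heights from 16 to 600.0 tags, so it does not grade how sure a peak is. CCNA2 had a peak of 7 tags at chr4:121823045-121823130 with a p-value of 0.00387, below the list's median height of 11 tags.

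A run of 5 U in the peak or the 50 nt upstream was found for 1 of the 3, in CCNB1, and for 39.7% of the list. GUGUCA in the last 15 nt was found in 0 of the 3, and in 22.6% of the list. The HNRNPC peaks lay 2425 nt (CCND1), 5615 nt (CCNA2) and 1099 nt (CCNB1) from the nearest PABPC4 peak of the same gene, and 0 overlapped one. The share of the whole HNRNPC list that overlaps a PABPC4 peak was not computed, so this count has no background.

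The other 7 genes had 0 HNRNPC peaks. In CDK6 this allows up to 1.30 peaks per 100 kb, taking 3 peaks as the upper limit of a count of 0, and genes with a PABPC4 3′ UTR peak held 0.975 HNRNPC intron peaks per 100 kb. In the shorter genes the limit was higher, from 2.60 per 100 kb in CCND3 to 49.9 in CDK2. In any single one of these genes, a density like the average could not be told from 0 peaks at this depth. The 10 members together held 0.683 HNRNPC intron peaks per 100 kb.

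The wider cell cycle list of 64 cyclins, kinases, inhibitors, retinoblastoma and E2F genes was all matched. PABPC4 3′ UTR peaks stood in 56 of the 64 (87.5%, against 48.2% of protein-coding genes). HNRNPC peaks stood in 26 (40.6%, against 18.9% of protein-coding genes and 33.9% of those with a PABPC4 3′ UTR peak). HNRNPC 3′ UTR peaks stood in 0, and at the 1.83% of protein-coding genes a list of this size is too short to show a lower share. The median tallest PABPC4 3′ UTR peak was 62 tags, against 72 tags over all genes with one, and the median upstream share was 48.7% over the 23 genes with 2 or more peaks, against 71.9% over all such genes. The tallest were in CCNB2, a mitotic cyclin (473 tags), CKS2, a kinase subunit (455 tags), and CDKN3, a phosphatase that acts on cyclin-dependent kinases (281 tags), with CCNF, an F-box cyclin, at 281 tags as well. Only CCND1 and CDK4 among the 10 members had a taller 3′ UTR peak than CCNB2.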

How the data were processed

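Peak lists of HNRNPC CLIP and PABPC4 PAPERCLIP were used, 1 per protein. For HNRNPC, the authors collapsed reads by molecular identifier, trimmed at quality 15, aligned with BWA 0.7.17 to hg38, and removed duplicates, and the CLIP Tool Kit called the peaks. PABPC4 processing is not given separately in the sources used here. The deposited signal is the peak height in pooled tags, unscaled. Heights summed to 147196 (HNRNPC) and 4019739 (PABPC4) tags, and library depth was not analysed here. The authors' p-values in the deposited lists reached 0.1 for HNRNPC and 0.05 for PABPC4.

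Coordinates were read on GRCh38 with GENCODE 44, and 0 peaks ran past a chromosome end. The feature was taken at the peak centre within the gene's own transcripts, in the order 3′ UTR, coding sequence, 5′ UTR, non-coding exon, intron. No test was made, since pooling left 1 list per protein. Shares have 95% Wilson or exact binomial intervals from scipy 1.17.1, with Python 3.11.15, pandas 2.3.3 and pysam 0.24.0. The searches for the poly(A) signal and the A-rich stretch and the upstream share were tested on simulated data. The members and lists were chosen with earlier results of these data known. Genes named beyond the members were the 3 of the wider list with the tallest PABPC4 3′ UTR peak, ties included, any with an HNRNPC 3′ UTR peak, the 3 most like CCND1, and markers. TSPAN31 was named after its values were seen. The alternatives covered p-value, height, duplicates, feature assignment, windows and A-rich peaks.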

Additional observations from a re-analysis of the deposited data

How the results depend on the processing

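No paired analysis was possible because the lists hold no values per sample, which also prevented any recalculation without a replicate. Of 51 recalculations, 42 stayed within the spread set by counting and 9 moved. Some of the 42 could not move. A stricter filter leaves a count of 0 at 0, and a p-value limit of 0.05 removes nothing from the PABPC4 list. The count of 42 is therefore not a measure of stability. At an authors' p of at most 0.001, HNRNPC positions in the members went from 3 to 1, the one in CCNB1, and the UUUUU share to 100% of that 1. The UUUUU share was 0% in the peak alone and 0% for a run of 6 U. Without A-rich peaks, PABPC4 positions went from 70 to 29, those in 3′ UTRs from 29 to 19, and the CCND1 upstream share from 39.95% to 3.41%. At or above the median height, PABPC4 positions were 45. With a 20-nt window, 62.2% of intron peaks were A-rich. These alternatives keep fewer peaks or search fewer letters by construction. Alternatives chosen after seeing the data were the signal window to 100 nt past the peak end and the p-value, height and every-entry settings for results not first paired with them. Small heights limit HNRNPC most, where the members' peaks held 7 to 18 tags.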
